A study of Rattus norvegicus with 10 samples.

Results

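The 9 genes Clu, Shbg, Amh, Cst3, Ctsl, Cp, A2m, Testin and Kitlg encode proteins that Sertoli cells release, and their transcripts were followed in cultured rat Sertoli cells given follicle-stimulating hormone (FSH). They were taken by name: every probe set whose only gene symbol is one of the 9 was included. This gave 19 probe sets of 8740 on the array, for 9 of 4736 genes with a probe set of their own. A probe set is a group of short probes read together as 1 value. Of the 19, 15 were bright enough to enter the test, and these covered 8 genes. The other 4 were both Kitlg probe sets, 1 of 3 for Cp (Y12178_at) and 1 of 6 for A2m (rc_AI113046_at).

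Sertoli cells line the seminiferous tubule and feed, shelter and signal to germ cells through what they secrete. FSH from the pituitary reaches them through a receptor that raises cyclic AMP. Their products include carriers (clusterin from Clu, androgen-binding protein from Shbg and the copper protein ceruloplasmin from Cp). Others are signals to other cells (anti-Müllerian hormone from Amh and stem cell factor from Kitlg). There are also proteases with their inhibitors (cathepsin L from Ctsl, cystatin C from Cst3 and alpha-2-macroglobulin from A2m). A further product, testin, is a relative of cathepsin L.

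The cells came from rats 20 days old and were grown in vitro. Total RNA was hybridised to 10 Affymetrix arrays in 5 groups of 2: untreated control cultures at 0 h and cultures treated with FSH for 2, 4, 8 or 24 h. The labels give no strain, dose or genotype and do not say whether the 2 arrays of a group came from separate cultures, so the tests measure only the spread between these arrays. All control cultures are from 0 h, so FSH and time in culture cannot be told apart. A 2 h array without a replicate number in its label was named replicate 1.

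Levels below are scaled intensities, the deposited values brought to a common 75th percentile. A difference is called when its limma p-value, adjusted over all 4439 tested probe sets of the array, is under 0.05. Arrays of a group correlated at r = 0.867 to 0.905 over these probe sets. Of 12 Sertoli markers 8 had a probe set, among them the FSH receptor gene Fshr, whose tested probe set had 195 and 88.2 on the 0 h arrays. Their sum was 2417 to 4569 on arrays of replicate 1 and 2165 to 3251 on arrays of replicate 2. It includes Inha, which also answers FSH and whose M36453_at had 286 and 141 at 0 h and 2939 and 1454 at 8 h. Vim had 842 to 1971. The untested Fshr probe set had 1.48 to 14.5 and the untested Gata1 13.7 to 51.6. Krt18 (X81448cds_at) had 115 and 83.7 at 0 h and 12.6 to 52.4 on the FSH arrays. Germ cell markers were present too: the summed intensity of 17 was 461 to 1949 on arrays of replicate 1 and 2614 to 3892 on arrays of replicate 2. Among them is Crem, a cyclic AMP responsive gene, whose S66024_g_at had 122 and 90.9 at 0 h and 1268 and 1244 at 4 h. Without Crem, left out after its values were seen, the sum was 1095 at 0 h and 348 to 681 later in replicate 1, and 2523 to 2958 in replicate 2. The sum of 6 peritubular myoid markers was 230 to 816 on 9 arrays and 2177 on 24 h replicate 1. Of 7 Leydig cell markers 4 had a probe set, with a sum of 83.0 to 855, highest at 4 h. Most of that sum on the FSH arrays was Star, the cholesterol carrier of steroid synthesis, while Cyp17a1 stood at 2.19 to 17.6. Macrophage markers summed to 106 to 170 and endothelial ones to 38.4 to 106. In RNA from whole cultures, fewer cells of a type and less RNA per cell cannot be told apart.

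None of the 15 tested probe sets was called at any time against 0 h by limma. At 2 h 0.676% of all tested probe sets were called, at 4 h 0.856%, at 8 h 0.766% and at 24 h 0%. At an unadjusted p under 0.05 the members counted 0, 1, 0 and 6 of 15, where all tested probe sets gave 4.57%, 7.75%, 9.3% and 4.6%. The 6 at 24 h were all probe sets of A2m or Cp and all lower than at 0 h, as were 1.73% of all tested probe sets. With the replicate number as a block the members called again numbered 0 at each time, against 1.22%, 2.95%, 2.68% and 0.0901% of all. The F test for a difference at any time called 0 members, and 0.991% of all or 3.22% with the block. The median member change was -0.04, -0.00, 0.17 and -0.66 log2 units, and the median over all tested probe sets was -0.02, -0.03, -0.02 and 0.02. These comparisons share the 0 h arrays, and several members share a gene.

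**Figure D1:**
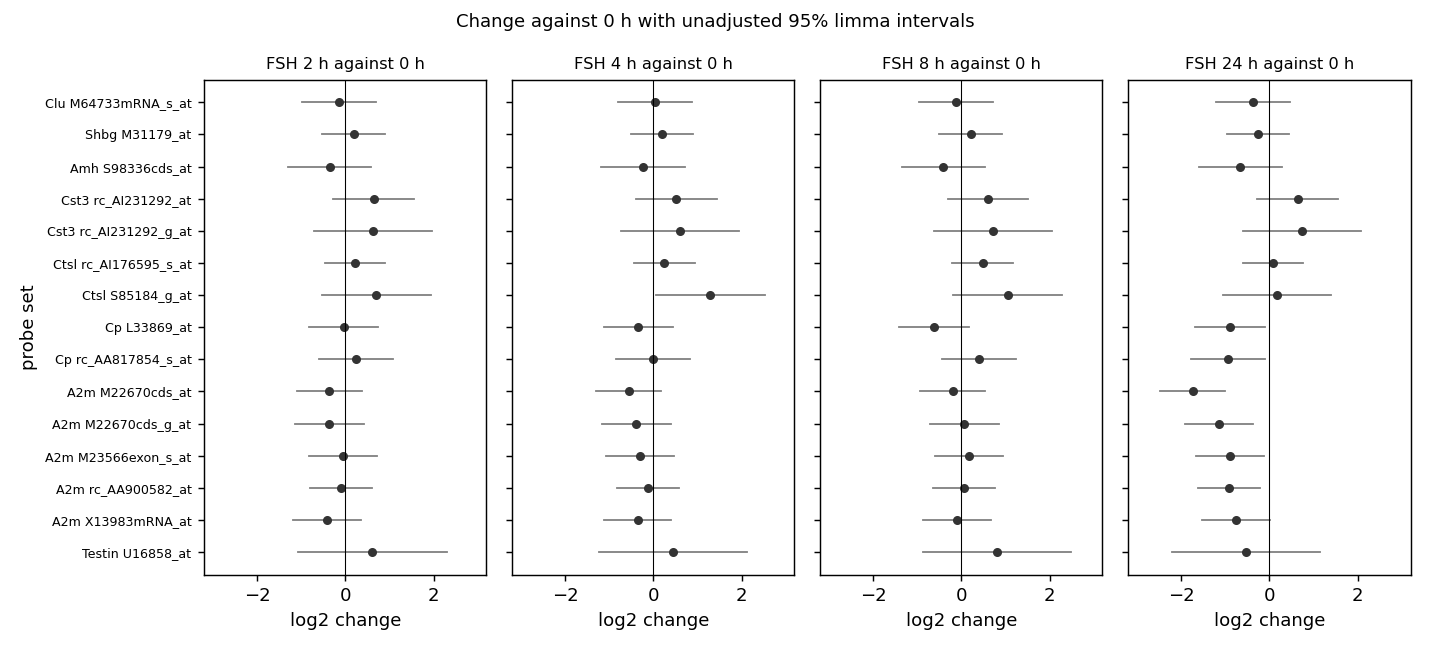
Log2 change (horizontal axis) of the 15 tested probe sets at each time against 0 h. Points are limma estimates and lines are unadjusted 95% intervals, with 2 arrays per time. Intervals at 2 and 8 h all cover 0, and those that leave out 0 at 24 h belong to A2m and Cp.

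Clu, the secreted chaperone clusterin, had a single probe set, brighter than 99.9% of all probe sets on both 0 h arrays. Its intensity was 13782 and 7695 at 0 h, 10625 and 8137 at 2 h, 11346 and 9795 at 4 h, 11858 and 7545 at 8 h and 9243 and 6779 at 24 h, replicate 1 first in each pair. The 0 h arrays enclosed 6 of the 8 FSH arrays, and no time was set apart from them. Such ranks are of probe signal, which differs between probes, and not of transcript amounts. The order of the means was 0, 4, 8, 2 and 24 h, with neighbours apart by less than the SD of the 0 h pair, 4305. At 24 h the log2 change was -0.38 ± 0.37 (SE), with an interval from -1.22 to 0.46.

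Shbg had 817 and 629 at 0 h, brighter than 94.3% and 94.9% of probe sets. At 2 h it had 737 and 902, at 4 h 744 and 911, at 8 h 786 and 874, and at 24 h 582 and 616. The means at 2, 4 and 8 h, 820, 828 and 830, differed by less than the SD of any of these pairs, and the 24 h pair lay below all other arrays. The change at 24 h was small, -0.26 ± 0.31 log2 units against 0 h and -0.47 ± 0.31 against 8 h (adjusted p = 0.996 and 0.975).

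Cp, the copper-carrying ferroxidase ceruloplasmin, had 2 tested probe sets. L33869_at gave 62.0 and 96.4 at 0 h, 85.4 and 66.2 at 2 h, 58.6 and 63.6 at 4 h, 47.4 and 53.0 at 8 h and 39.6 and 43.4 at 24 h. Group means stepped down at each time, from 79.2 ± 24.3 (SD, n = 2) at 0 h to 41.5 ± 2.65 at 24 h. The other, rc_AA817854_s_at, had 63.2 and 46.8 at 0 h, 80.5 and 52.1 at 2 h, 53.9 and 54.6 at 4 h, 80.1 and 64.0 at 8 h and 30.5 and 26.2 at 24 h. The probe sets disagreed at 8 h, where their log2 changes were -0.63 ± 0.35 and 0.40 ± 0.37, and both were low at 24 h, with -0.90 ± 0.35 and -0.94 ± 0.37. Neither was called (adjusted p = 0.996 for both at 24 h). The untested Y12178_at ran from 15.9 to 51.1, both of these on 0 h arrays.

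**Figure D2:**
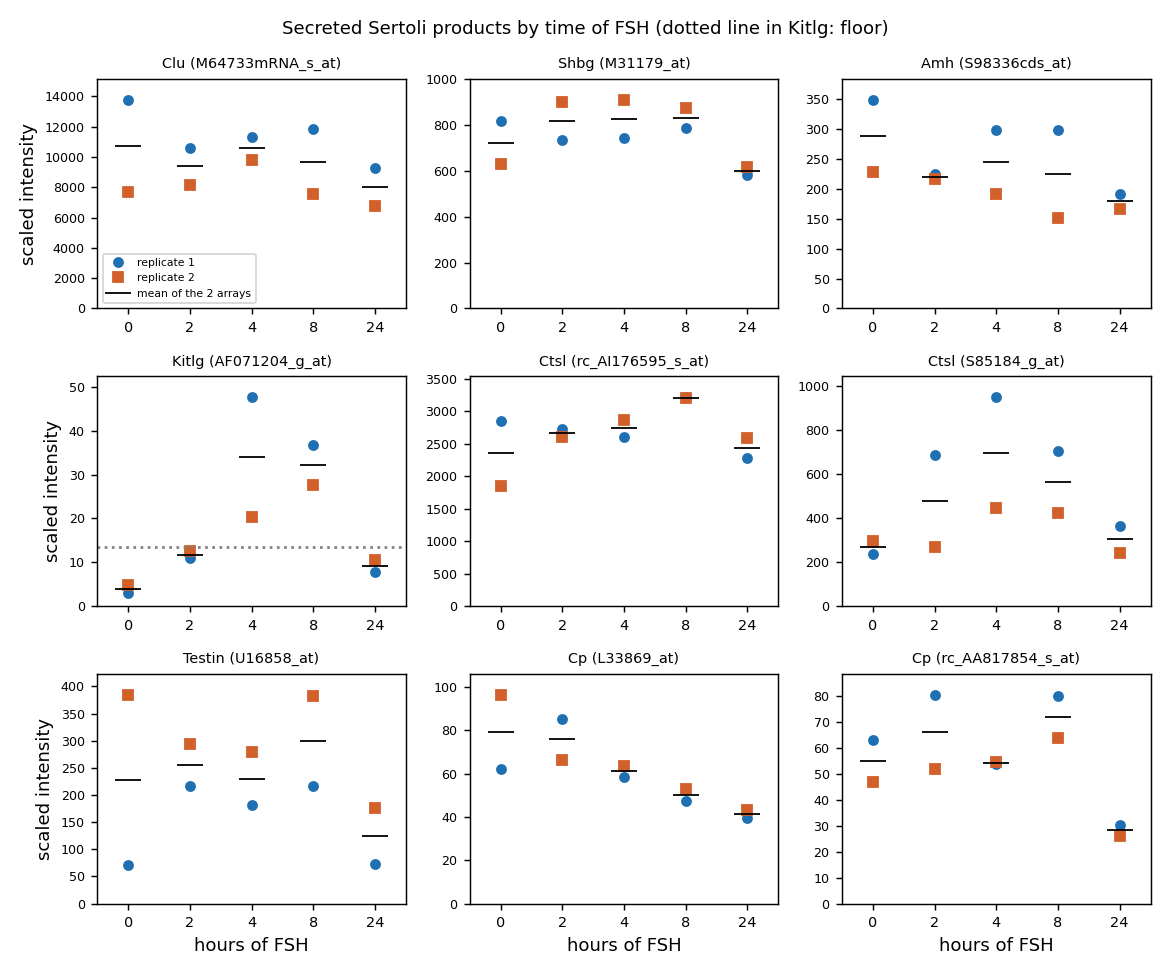
Scaled intensity (vertical axis, from 0) by hours of FSH (evenly spaced, not to scale) for 9 probe sets of 7 genes. Circles are replicate 1, squares replicate 2 and bars the mean of the 2 arrays. The arrays of Clu overlap over time, Shbg and both Cp probe sets are lowest at 24 h, and Kitlg passes the floor of 13.4 at 4 and 8 h.

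Amh, the TGF-beta family hormone that makes the Müllerian ducts regress in male fetuses, had 349 and 228 at 0 h. Later values were 224 and 217 at 2 h, 298 and 192 at 4 h, 299 and 152 at 8 h and 191 and 167 at 24 h. Each of the 8 FSH arrays lay below the 0 h array of its own replicate number, as was the case for 6.65% of all tested probe sets. The 2 h and 24 h pairs lay below both controls and the 4 h and 8 h pairs overlapped them. The largest difference, at 24 h, was -0.66 ± 0.42 log2 units with an interval from -1.60 to 0.29 (adjusted p = 0.996).

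Kitlg encodes the ligand of the receptor Kit on spermatogonia, and both of its probe sets lay under the intensity filter. The brighter, AF071204_g_at, had 2.92 and 4.79 at 0 h, 10.9 and 12.4 at 2 h, 47.6 and 20.4 at 4 h, 36.8 and 27.6 at 8 h and 7.79 and 10.5 at 24 h. Only the 4 arrays at 4 and 8 h exceeded the floor of 13.4, below which values have no order. With lower values set to that floor, the fitted level was 2.32-fold higher at 4 h and 2.37-fold higher at 8 h than at 0 h. In a fit of all 8740 probe sets without the filter these differences missed the threshold (adjusted p = 0.522 and 0.421). They missed it with the replicate block too (adjusted p = 0.358 and 0.303). The other Kitlg probe set, AF071204_at, passed the floor on 1 array, 4 h replicate 1, with 18.5. Its fitted level on the same scale was 1.17-fold higher at 4 h and unchanged at 8 h.

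Ctsl encodes the cysteine protease cathepsin L, which Sertoli cells both keep in lysosomes and release. Its bright probe set rc_AI176595_s_at had 2844 and 1855 at 0 h, 2732 and 2602 at 2 h, 2602 and 2863 at 4 h, 3213 and 3195 at 8 h and 2277 and 2589 at 24 h. The 8 h pair was the highest at 3204 ± 12.2 (SD, n = 2), against 2349 ± 700 at 0 h, a log2 change of 0.48 ± 0.31 (adjusted p = 0.730). The dimmer S85184_g_at gave 236 and 297 at 0 h, 687 and 270 at 2 h, 949 and 446 at 4 h, 707 and 425 at 8 h and 366 and 243 at 24 h. Both arrays at 4 h and both at 8 h were above both controls, by 1.30 ± 0.55 and 1.05 ± 0.55 log2 units. These differences were not called (adjusted p = 0.574 and 0.640, and 0.135 and 0.213 with the block). Within replicate 1 the 4 h difference was 2.01 log2 units and within replicate 2 it was 0.58. Over the 10 arrays, with each replicate number centred, the 2 probe sets correlated at r = 0.283, and their highest means were at different times, 8 h and 4 h.

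Testin is related to cathepsin L in sequence and is known for its secretion at junctions between Sertoli and germ cells. Its probe set had 70.7 and 384 at 0 h, 216 and 295 at 2 h, 181 and 279 at 4 h, 216 and 382 at 8 h and 73.8 and 176 at 24 h. The 0 h arrays were the lowest and the highest of all 10, and no time could be set apart from them. At 2, 4 and 8 h the difference from 0 h was 1.36 to 1.62 log2 units within replicate 1 and -0.46 to -0.01 within replicate 2. Leaving out control replicate 1 turned the 8 h value from 0.80 to -0.42, and leaving out control replicate 2 made it 2.03. The 24 h value, -0.53, became 0.69 without control replicate 2 and 0.10 without 24 h replicate 1. The log2 change from 8 to 24 h was -1.33 ± 0.75 (adjusted p = 0.902), with both 24 h arrays below both 8 h arrays.

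Since FSH acts through cyclic AMP, promoters were searched for the cyclic AMP response element, the site through which it acts on many genes. RefSeq promoters (GRCr8), 250 bases before to 50 after the start, were matched for 7 of the 9 genes, all but Clu and A2m, and searched on both strands for TGACGTCA and for its part TGACG, which lies within it. The longer motif was in 0 of the 7 windows, and in 1.83% of all 33469 rat windows. The shorter was in 2 of the 7, those of Ctsl and Testin, and in 21.2% of all, so its share here is near the background. The 30 bases around each match are shown 5′ to 3′ on the strand of the gene, with the motif, or its reverse complement CGTCA, in capitals.
Ctsl, chr17:769955-769984, + strand: acgacccggcggCGTCAcgcgaccggagtc
Ctsl, chr17:770006-770035, + strand: aggcacagccaaTGACGgggcgggggcggg
Testin, chr17:3852313-3852342, + strand: agtcacattgccCGTCAgtaacagcctaca
The Ctsl matches begin 137 and 86 bases before the start and the Testin match 184 bases before it. They describe letters only, and binding was not measured.

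Cst3 encodes cystatin C, a secreted inhibitor of cathepsins. Its probe set rc_AI231292_at had 1104 and 726 at 0 h, 1616 and 1207 at 2 h, 1447 and 1145 at 4 h, 1595 and 1164 at 8 h and 1886 and 1033 at 24 h. The partner set rc_AI231292_g_at had 1808 and 1272 at 0 h, 3180 and 1726 at 2 h, 3274 and 1620 at 4 h, 3597 and 1723 at 8 h and 4152 and 1538 at 24 h. On both probe sets every FSH array lay above the 0 h array of its own number, a pattern held by 6.53% of all tested probe sets. The log2 changes were 0.52 to 0.64 on the first and 0.60 to 0.74 on the second. On rc_AI231292_g_at the difference from the 0 h array of the same number was 0.81, 0.86, 0.99 and 1.20 log2 units at 2, 4, 8 and 24 h in replicate 1, and 0.44, 0.35, 0.44 and 0.27 in replicate 2. On this probe set the replicates thus parted most at 24 h, and the mean change averages these courses. On rc_AI231292_at these differences were 0.55, 0.39, 0.53 and 0.77 in replicate 1 and 0.73, 0.66, 0.68 and 0.51 in replicate 2. There replicate 2 had the larger difference at 2, 4 and 8 h. None of the changes from 0 h was called, and with the block the smallest adjusted p was 0.272, at 8 h on the second probe set.

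A2m encodes alpha-2-macroglobulin, a protein that traps proteases of many classes and carries growth factors. On M23566exon_s_at, its brightest probe set, the arrays had 992 and 1333 at 0 h, 921 and 1322 at 2 h, 821 and 1064 at 4 h, 1357 and 1231 at 8 h and 552 and 698 at 24 h. On M22670cds_at they had 148 and 123 at 0 h, 98.7 and 110 at 2 h, 80.6 and 103 at 4 h, 143 and 96.3 at 8 h and 39.6 and 40.8 at 24 h. The other 3 tested probe sets ran from 97.4 to 340 on the arrays of 0 to 8 h and from 51.7 to 163 on those of 24 h. On each of the 5 both 24 h arrays lay below all 8 others. The 5 moved together, with r = 0.805 to 0.944 over the 10 arrays after centring each replicate number. They measure 1 gene and are not independent.

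The A2m differences at 24 h against 0 h were -1.74 ± 0.33 log2 units on M22670cds_at, -1.14 ± 0.35 on M22670cds_g_at, -0.92 ± 0.31 on rc_AA900582_at, -0.89 ± 0.34 on M23566exon_s_at and -0.76 ± 0.34 on X13983mRNA_at. These correspond to levels 3.35-fold to 1.70-fold lower than at 0 h. The unadjusted 95% interval left out 0 on all but X13983mRNA_at, but no A2m probe set passed the adjusted threshold. The smallest adjusted p was 0.382, on M22670cds_at, and 0.102 with the block. Over the alternatives tried it ran from 0.102 to 0.460 for that probe set, and up to 1 with 1 array left out. Against 8 h, M22670cds_at differed by -1.55 ± 0.33 log2 units (adjusted p = 0.130, and 0.0524 with the block), where 0.225% of all tested probe sets were called and 1.15% with the block. The F test over all times gave it an adjusted p of 0.148, and 0.0588 with the block.

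**Figure D3:**
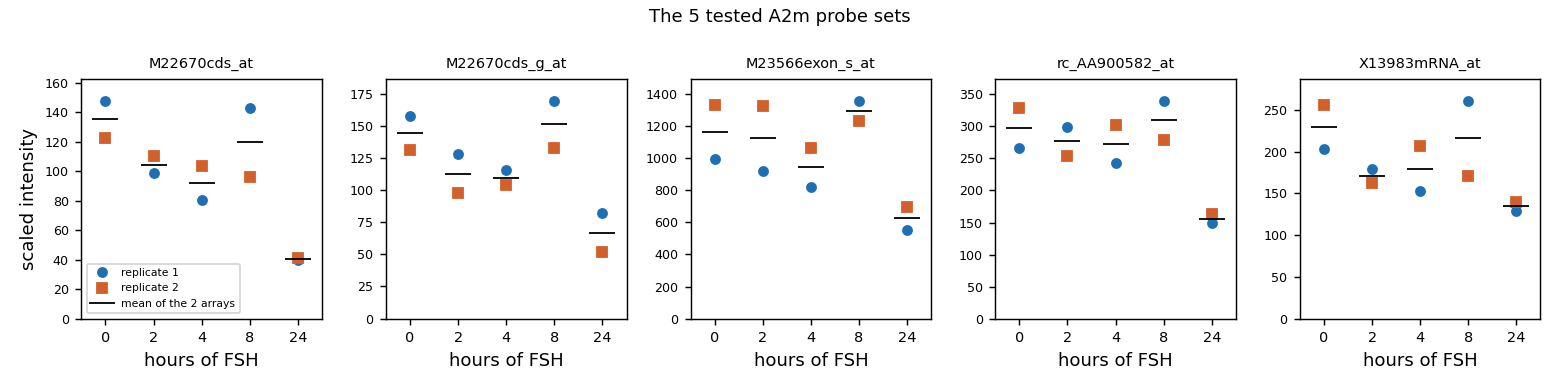
Scaled intensity (vertical axis, from 0) of the 5 tested A2m probe sets by hours of FSH (evenly spaced). Circles are replicate 1, squares replicate 2 and bars the mean of the 2 arrays. In all 5 panels both 24 h arrays lie below the other 8, as on M23566exon_s_at, where they have 552 and 698 and the lowest of the others has 821.

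Low values at 24 h were shared by several members. Both 24 h arrays lay below the 8 others for 8 of the 15 tested probe sets, the 5 of A2m, 2 of Cp and 1 of Shbg, and for 1.98% of all tested probe sets. With 1 probe set per gene, the brightest, it held for 3 of 8 members and for 1.79% of 2733 genes. This pattern was picked after the values were seen, and the linear model called none of these probe sets. At 24 h 11 of the 15 tested member probe sets had a value under that of 0 h, and from 8 to 24 h 13 of 15. The shares of all tested probe sets were 48.6% and 47.4%. Both member counts include the 5 of A2m and the 2 of Cp, which repeat a gene and are not independent. The exceptions from 8 to 24 h were the Cst3 probe sets. The 24 h replicate 1 array was the one high in myoid markers and lowest in the germ cell sum. Without it A2m differed from 0 h by -1.72 on M22670cds_at and -0.72 on M23566exon_s_at, and the Cp probe sets by -0.83 and -1.05.

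Arrays of replicate 2 also differed from those of replicate 1 at matched times, which touches the spread behind every value above. Of the 15 tested probe sets 2 were called, where 15.2% of all were. Cst3 (rc_AI231292_g_at) was lower in replicate 2 at all 5 times, with means of 3202 and 1576 over the 5 arrays of each number, a log2 difference of -0.98 ± 0.18 (adjusted p = 0.00828). Testin was higher in replicate 2 at all 5 times, with means of 152 and 303 and a log2 difference of 1.12 ± 0.28 (adjusted p = 0.0252). The other Cst3 probe set, Clu, Amh and M22670cds_g_at of A2m were lower in replicate 2 at all 5 times and not called. Being lower at all 5 times held for 15.3% of tested probe sets, and being higher for 11%. At 2 h these orders rest on the number given here to the unlabelled array.

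The call on Cst3 was kept in all 10 fits without 1 array and that on Testin in 4 of them, those without a 0 h or a 2 h array. Both calls were lost when dim probe sets were kept (adjusted p = 0.0564 for Cst3 and 0.181 for Testin). Without either 0 h array 5 members were called, Clu, both Cst3 probe sets, S85184_g_at of Ctsl and Testin. The germ cell and RNA quality readings moved with the number as well. Of 12 tested probe sets of germ cell markers 6 were higher in replicate 2 and 0 lower, the 3 of Crem being in neither group, and Ldhc, which encodes a germ cell form of lactate dehydrogenase, had 58.5 to 570 in replicate 1 and 1007 to 1649 in replicate 2. The 3'/5' ratio of beta-actin, a reading of RNA integrity, was 0.928 to 1.17 against 1.48 to 1.76. Of 11 tested probe sets of Sertoli markers 6 were lower in replicate 2 and 0 higher, where 15.2% of all were called either way. They were of Fshr, Gata4, Inha and Wt1 (S63358_s_at), while the other Wt1 probe sets, Vim, Rhox5 and Krt18 were not called. The part of these readings in the Cst3 and Testin differences was not tested.

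**Figure D4:**
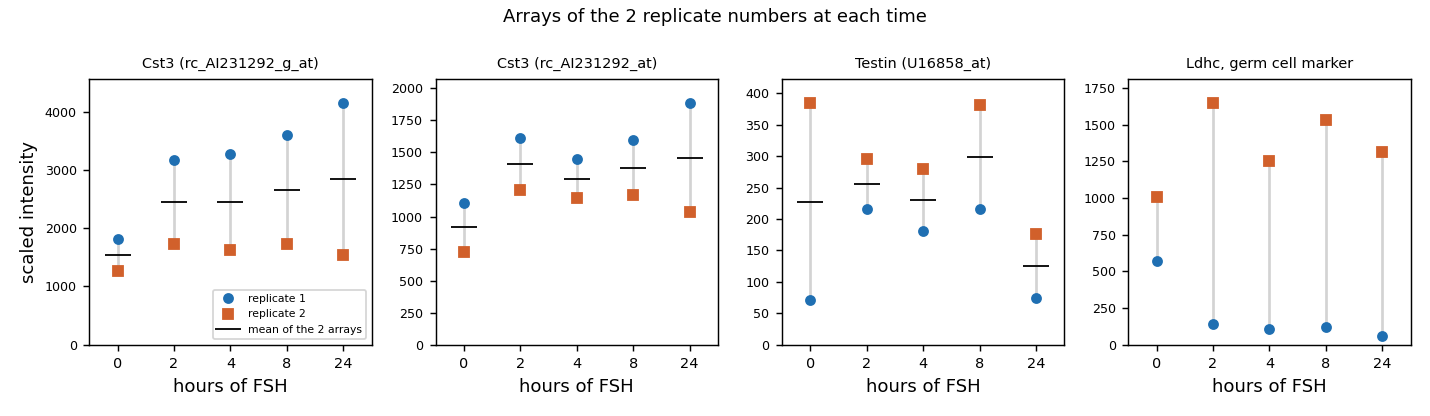
Scaled intensity (vertical axis, from 0) by hours of FSH for both Cst3 probe sets, Testin and the germ cell marker Ldhc. Grey lines join the 2 arrays of a time, circles are replicate 1, squares replicate 2 and bars, drawn for the members, their mean. Cst3 is lower, and Testin and Ldhc are higher, in replicate 2 at all 5 times. The 2 h array drawn as replicate 1 has no number in its label.

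A list of 49 other secreted Sertoli products held 32 genes with tested probe sets, 49 probe sets in all. Against 0 h, 1 was called higher at 2 h, 1 at 4 h, 2 at 8 h and 0 at 24 h, and 0 were called lower at any time. Of all tested probe sets 0.676%, 0.856%, 0.766% and 0% were called at these times, in either direction. The list's median change was -0.01, 0.01, 0.01 and 0.08 log2 units, and that of all tested probe sets -0.02, -0.03, -0.02 and 0.02. The called genes were Plat, the tissue-type plasminogen activator, at 2, 4 and 8 h and Inha, the inhibin alpha subunit, at 8 h. Plat stood at 2.68 ± 0.34, 3.97 ± 0.34 and 4.28 ± 0.34 log2 units above 0 h and Inha at 3.36 ± 0.55 (adjusted p = 0.0119, 0.000847, 0.00116 and 0.0302). The Inha call was on M36453_at only. Its other tested probe set, M32754cds_s_at, had 2.25 ± 0.59 at 8 h and was not called (adjusted p = 0.180). With the block Inha was called higher at all 4 times, on 2 probe sets at 4 and 8 h, and the endothelin gene Edn1 lower at 4 h (-1.95, adjusted p = 0.0186). In fits without 1 array the call on Plat at 2 h was lost in 3 of 10, those without control replicate 1, control replicate 2 or 2 h replicate 1 (adjusted p = 0.0583, 0.0780 and 0.136). That on Inha at 8 h was lost in 6 of 10, those without a 0 h, a 4 h or an 8 h array (adjusted p = 0.0557 to 0.330). The calls on Plat at 4 and 8 h were kept in all 10.

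The genes closest to each member's time course were found by Pearson correlation over the 10 arrays, with each replicate number centred. The member's brightest probe set was compared with every tested probe set of the other genes, and the highest r of each gene was kept. They were Ptms and Eef2 for Clu (r = 0.923 and 0.898), Plin2 and Hyal2 for Shbg (0.909 and 0.885), Cyp2e1 and Cxcl6 for Amh (0.919 and 0.900) and Hnrnpab and Ctsk for Cst3 (0.923 and 0.905). For Ctsl they were Vdac1 and Aplp2 (0.900 and 0.894), for Cp Mlnr and Cd72 (0.911 and 0.895), for A2m St3gal2 and C1qtnf6 (0.914 and 0.872) and for Testin Mtdh and Ppp3r1 (0.965 and 0.958). None of these 16 genes was called against 0 h on the probe set compared. They are the highest from 3713 tested probe sets with 1 symbol, less those of the members, over 10 arrays that share their scaling. No test was made of them. Among the members themselves r ran from -0.66, for Amh and Cst3, to 0.76, for Clu and Shbg.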

How the data were processed

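The deposited values were linear intensities for 8799 probe sets on 10 arrays. What the authors did to make these intensities, tools and genome build included, is not given in the sources used here. The 2 h array without a number was named replicate 1. Members and lists were chosen with earlier results of these data known.

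The 59 control probe sets were left out. Each array was divided by 0.911 to 1.13 to share a 75th percentile of 107, values under 13.4 (that percentile divided by 8) were set to that floor, and log2 was taken. Probe sets with a mean over the 10 arrays of at least the pooled median, 31.9, were tested. Means and SDs are of scaled values without the floor. Symbols came from the platform's annotation, and all 9 genes matched RefSeq by gene identifier.

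Tests used limma 3.58.1 under R 4.3.3 (1 mean per group, eBayes with an intensity trend, 5 residual degrees of freedom) and adjusted by Benjamini-Hochberg within each comparison. The script was tested on simulated data. The replicate comparison used group means plus the number. Deviations of same-numbered arrays from their group means correlated in all 10 pairs of times (r = 0.11 to 0.698), least between 0 and 2 h. Arrays of a number thus tended to vary together. The main tests leave this out, and a fit with the replicate block was run beside. At 8 h against 0 h the SE was 0.60 without and 0.29 with the block for Cst3 (rc_AI231292_g_at), and 0.75 and 0.44 for Testin. Named were all members, called genes of the secreted list and the 2 genes most like each member. Precision is limited by the number of arrays. Alternatives changed scaling, floor, filter, block, trend and arrays.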

Additional observations from a re-analysis of the deposited data

How the results depend on the processing

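No member was called against 0 h, between successive times or over all times under any alternative tried. Of 1746 member values under alternatives 8 lost and 8 gained a call, all between replicate numbers, and 76 changed sign, none of them a value whose interval left out 0. All 190 values of the A2m probe sets at 24 h stayed negative. The count of 8 member probe sets with both 24 h arrays lowest held as deposited and after quantile normalization. With the replicate block the probe sets called became 54 at 2 h, 131 at 4 h, 119 at 8 h, 4 at 24 h, 4 from 4 to 8 h, 51 from 8 to 24 h and 143 over all times, and the other secreted products called 2, 4 and 1 at 2, 4 and 24 h. Among members and these products the block changed no call but those on Inha and Edn1. Without the filter the counts became 4 at 24 h, 14 from 2 to 4 h, 13 from 4 to 8 h, 2 from 8 to 24 h and 167 between numbers, 0 members between numbers, and 2, 2 and 1 other products at 2, 4 and 24 h. Quantile normalization gave 2 at 24 h, 16 from 8 to 24 h and 2 other products at 4 h, values as deposited also 2, and a floor at the 75th percentile / 4 gave 17 from 8 to 24 h. Fits without 1 array called 0 to 31 probe sets at 2 h, 8 to 28 at 4 h, 5 to 26 at 8 h, 0 to 15 from 8 to 24 h, 19 to 37 over all times and 294 to 1047 between numbers, with 1 to 5 members between numbers and 0 to 1 and 1 to 2 other products at 2 and 8 h. Part of that loss is built in, since such a fit has a group of 1 array assumed to vary like the others. The other causes were not tested.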
